A study of Mus musculus with 8 samples.

Results

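The 48 protein-coding mouse genes for fibroblast growth factors (FGFs), bone morphogenetic proteins (BMPs), growth and differentiation factors (GDFs), activin subunits and hedgehog proteins were examined for H2AK119ub, the form of histone H2A that bears ubiquitin on a lysine of its tail, in epidermal progenitors. Members were taken by gene symbol from 21883 nuclear protein-coding genes of the RefSeq annotation of GRCm38 (mm10). They were 22 FGF, 11 BMP, 10 GDF, 2 activin and 3 hedgehog genes. This set was chosen with earlier results of these data known. A gene was called marked when a peak lay within 2 kb of its lower or upper end. Each gene thus fell into 1 of 4 states: both lists, control alone, Eed cKO alone or no peak.

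The cells were basal interfollicular epidermal progenitors from the back skin of newborn mice at postnatal day 0, sorted for high α6-integrin among EpCAM+ Sca1+ cells. The groups used here were labelled Control, with no allele named, and Eed cKO, with the genotype Eed-/-. Each had 2 H2AK119ub libraries but 1 deposited peak list. The labels do not name the Cre driver or the animals behind each library, and the Ring1a/b 2KO (Ring1a-/- Ring1b-/-) library and the 3 inputs were not analysed here.

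The control list held 4621 peaks (median width 4327 bp) and the Eed cKO list 2541 (median 5169 bp). Peaks carried position only, so the read depth behind either list is unknown, no replicate error exists and no difference was tested. A gene without a peak in a list may have had less mark, fewer reads or a signal below the caller's threshold, and these cannot be told apart. No peak lay at Eed itself in either list, and peak positions do not check the knockout. Of marker genes for the labelled cell type, 0 of 7 basal keratinocyte genes, Krt5, Krt14 and Trp63 among them, had a peak in either list (95% Wilson upper bound 35.4%). The leukocyte and melanocyte markers were at 0 of 5 each in both lists, fibroblast markers at 1 of 5 in control, suprabasal keratinocyte markers at 2 of 5 in control (Krt1 and Krt10) and 1 of 5 in Eed cKO (Krt1), and all 5 Merkel cell markers had peaks in both lists. Peaks of this mark do not measure expression, so these counts check the sort only indirectly.

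Polycomb repressive complex 1 places a single ubiquitin on H2A at CpG-rich starts of developmental genes that are kept silent, and Polycomb repressive complex 2, of which Eed is a core subunit, methylates H3K27 at many of the same places. Most of these genes encode secreted signals, the exceptions being the intracellular FGFs and Bmp1, a protease. Secreted FGFs mostly act on receptor tyrosine kinases, and most BMPs, GDFs and activins act through serine/threonine kinase receptors and SMAD proteins. Hedgehog proteins relieve the block that Patched places on Smoothened. In skin these pathways direct placode formation, hair follicle growth and the exchange between epidermis and dermis.

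Starts with and without the mark are shown by the 250 bases ahead of 7 genes, from RefSeq promoters of GRCm38, each written 5′ to 3′ on the gene's own strand with every CG pair in capitals. Among the 33 members with a promoter in the RefSeq table, those shown for each family are the ones in both lists with the widest control peak over the start: Fgf3 (chr7:144838362-144838611, plus strand), Bmp4 (chr14:46390670-46390919, minus), Gdf7 (chr12:8301955-8302204, minus), Inhbb (chr1:119422249-119422498, minus) and Ihh (chr1:74951673-74951922, minus). Fgf5 (chr5:98253934-98254183, plus) had the widest such peak among those 33 that were marked in control alone. Bmp15 (chrX:6320725-6320974, minus) was the member of the 33 without a peak that lay farthest from any control peak.
Fgf3: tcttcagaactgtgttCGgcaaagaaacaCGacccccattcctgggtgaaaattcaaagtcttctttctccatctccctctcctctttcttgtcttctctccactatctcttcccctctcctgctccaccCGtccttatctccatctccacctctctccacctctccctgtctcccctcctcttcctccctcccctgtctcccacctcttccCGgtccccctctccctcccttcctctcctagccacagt
Bmp4: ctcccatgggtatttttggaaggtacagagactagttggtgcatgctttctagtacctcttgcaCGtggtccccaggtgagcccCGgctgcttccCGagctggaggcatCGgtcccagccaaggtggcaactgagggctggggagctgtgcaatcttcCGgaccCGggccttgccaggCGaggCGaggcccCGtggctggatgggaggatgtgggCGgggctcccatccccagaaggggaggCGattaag
Gdf7: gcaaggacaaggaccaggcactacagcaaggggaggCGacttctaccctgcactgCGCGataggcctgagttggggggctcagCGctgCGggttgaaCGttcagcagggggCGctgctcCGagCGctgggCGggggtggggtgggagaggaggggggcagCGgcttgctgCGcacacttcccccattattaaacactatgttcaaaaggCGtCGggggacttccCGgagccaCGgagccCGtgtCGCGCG
Inhbb: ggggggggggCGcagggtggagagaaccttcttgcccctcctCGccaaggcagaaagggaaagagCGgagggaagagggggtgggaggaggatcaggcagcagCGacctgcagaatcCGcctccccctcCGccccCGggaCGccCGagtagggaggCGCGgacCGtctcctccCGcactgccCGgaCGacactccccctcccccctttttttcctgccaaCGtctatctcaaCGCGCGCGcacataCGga
Ihh: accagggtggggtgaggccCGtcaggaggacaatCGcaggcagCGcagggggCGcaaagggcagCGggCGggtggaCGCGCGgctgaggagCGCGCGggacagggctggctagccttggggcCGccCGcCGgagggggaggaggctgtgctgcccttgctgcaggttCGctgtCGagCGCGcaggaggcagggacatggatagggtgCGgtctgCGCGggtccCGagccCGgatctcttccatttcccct
Fgf5: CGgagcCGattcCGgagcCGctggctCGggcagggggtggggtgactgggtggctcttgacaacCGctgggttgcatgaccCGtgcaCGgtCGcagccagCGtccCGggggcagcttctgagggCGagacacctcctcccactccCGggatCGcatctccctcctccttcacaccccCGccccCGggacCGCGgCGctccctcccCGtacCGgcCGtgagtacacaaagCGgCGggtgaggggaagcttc
Bmp15: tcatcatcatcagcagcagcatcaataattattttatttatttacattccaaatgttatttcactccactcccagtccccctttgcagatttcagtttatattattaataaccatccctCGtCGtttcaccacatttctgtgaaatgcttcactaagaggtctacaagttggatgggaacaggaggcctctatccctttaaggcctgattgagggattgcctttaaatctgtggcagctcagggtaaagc
The stretches of Ihh and Fgf5 held 24 CG pairs each, that of Inhbb 21 and that of Gdf7 20. That of Bmp4 held 11, that of Fgf3 4 and that of Bmp15 2.

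In control, 25 of the 48 ligand genes were marked (52.1%, 95% Wilson interval 38.3 to 65.5), against 11.7% of all protein-coding genes. In Eed cKO, 15 of 48 were marked (31.2%, 19.9 to 45.3), against 7.40% of all genes. Both lists marked 14 members, control alone marked 11 and Eed cKO alone marked Fgf11, while 22 had no peak in either list. Over all genes these shares were 5.71% (both lists), 5.95% (control alone) and 1.70% (Eed cKO alone). Of the 25 control-marked members 14 were also marked in Eed cKO (56.0%, 37.1 to 73.3), close to the background share of 49.0% for all control-marked genes. The 28 control and 16 Eed cKO peaks behind these counts were distinct, with 0 peaks shared between members, although some also lay at a gene outside the set. The intervals cover counting error only, and the set was chosen with earlier results of these data known.

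By family, the control-marked genes that were also in the Eed cKO list were 3 of 3 hedgehog genes, 4 of 5 GDF genes, 5 of 11 FGF genes, 1 of 5 BMP genes and 1 of 1 activin gene. With so few genes per family the Wilson intervals overlapped, for example 3.62 to 62.4% for BMP genes and 37.6 to 96.4% for GDF genes, and no difference between families was tested. Wnt ligand genes, a further family of secreted signals, were marked in 9 of 19 cases in each list, and 6 were in both.

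**Figure D1:**
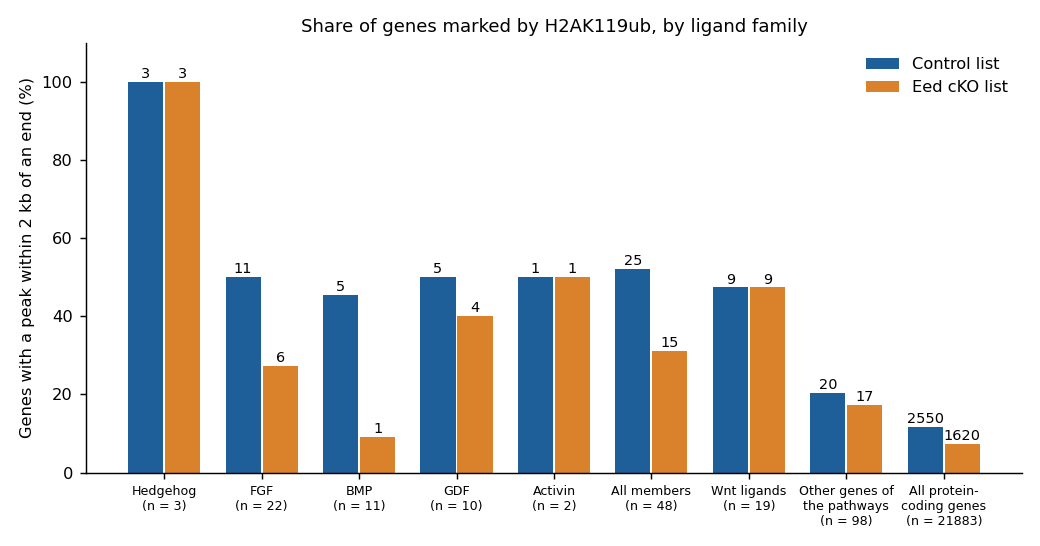
Percent of genes with an H2AK119ub peak within 2 kb of an end (y axis) in the control list (blue) and the Eed cKO list (orange), for each ligand family, all 48 members, Wnt ligands, 98 other genes of the pathways and all 21883 protein-coding genes, with the number of marked genes above each bar. All 3 hedgehog genes were marked in each list, while the control list marked 5 of 11 BMP genes and the Eed cKO list 1.

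All 3 hedgehog genes carried peaks in both lists. Shh, the ligand of the developing hair bud, lay on chromosome 5 (28456840 to 28467101) inside a single control peak of 17884 bp. In Eed cKO this stretch was split into peaks of 3855 and 11886 bp, which lay across the lower and the upper end of the gene. Ihh, the ligand of growing cartilage, had a control peak of 9807 bp and an Eed cKO peak of 7810 bp that lay wholly inside it. Dhh, the ligand of Schwann and Sertoli cells, had peaks of 9330 and 7365 bp, again with the Eed cKO peak wholly inside the control peak. Eed cKO peaks covered 79.6% of the control peak at Ihh and 78.9% at Dhh. Upstream of the start the Eed cKO peak stopped 1816 bp short of the control edge at Ihh and 1541 bp short at Dhh, whereas inside the gene the edges were 181 and 424 bp apart.

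Among the FGF genes, Fgf8 and Fgf15 had peaks of nearly equal width in the lists. Fgf8, a signal of the limb ridge and of the midbrain boundary, lay on chromosome 19 under a control peak of 16463 bp and an Eed cKO peak of 16482 bp. The Eed cKO edges lay 386 and 405 bp higher on the chromosome than the control edges. These peaks also reached the ends of Npm3 and Oga. Of the other genes of its subfamily, Fgf18, a regulator of bone growth and of the resting hair follicle, had peaks of 5911 and 5440 bp over its start, with 80.2% of the control peak covered. Fgf17, a signal of the developing cerebellum, had a 4811 bp control peak that also lay at Dmtn and was 59.8 kb away from any Eed cKO peak.

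Fgf3, Fgf4 and Fgf15 lie side by side within 62.3 kb of chromosome 7, and all of them were marked in both lists. Fgf3, a signal of inner ear formation, had control peaks of 11418 and 2841 bp. The single Eed cKO peak there, 8782 bp, covered 74.7% of the wider control peak and none of the narrower. Fgf4, a signal of the early embryo and limb ridge, had peaks of 7552 and 6680 bp. Fgf15, the mouse gut hormone that restrains bile acid synthesis, had peaks of 6035 and 6037 bp, each covered to 97.3% by the other. A further control peak between 8.83 and 12.91 kb above the lower end of Fgf15 met no Eed cKO peak. These 3 genes share 1 locus and are not independent cases.

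In control alone, 6 FGF genes were marked. Fgf5, which ends the growth phase of the hair follicle, had the widest of these peaks, 15528 bp over its start on chromosome 5 (98247991 to 98263518). A further 6.15 kb control peak lay inside the Fgf5 span, and the nearest Eed cKO peak lay 9.13 kb beyond the upper end of the gene. Fgf9, needed for testis and lung formation, had an 11852 bp control peak over its start, 66.2 kb from the nearest Eed cKO peak. Fgf10, the mesenchymal signal for limb and lung buds, had a 4788 bp control peak over its start 2414 kb away from any Eed cKO peak. Fgf23, the bone hormone of phosphate balance, had a 7568 bp control peak that began 1.72 kb inside its start and covered most of the gene. Fgf12, an intracellular protein that binds sodium channels, had a 2479 bp control peak over the start of its 595 kb span. Fgf17, named above, was the remaining member.

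Fgf11, like Fgf12 an intracellular FGF, was the only member in the Eed cKO list alone. Its 11288 bp peak on chromosome 11 (69796218 to 69807505) lay over the start and also at Chrnb1 and Tmem102. The peak thus cannot be assigned to Fgf11 rather than to its neighbours. The same limit holds for the peaks at Fgf8, Fgf17, Bmp1, Gdf1, Gdf7 and Gdf11 that also lay at other genes. No control peak touched it, and the control peak nearest to Fgf11 lay 132 kb away. The other 10 FGF genes, Fgf1, Fgf2, Fgf6, Fgf7, Fgf13, Fgf14, Fgf16, Fgf20, Fgf21 and Fgf22, had no peak in either list. Among them are Fgf7 and Fgf22, which stimulate keratinocytes, and Fgf20, a signal of the hair placode. Fgf3 and Fgf10, of the same subfamily as Fgf7 and Fgf22, did have control peaks.

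Of the BMP genes, Bmp4 was in both lists and 4 others were in control alone. Bmp4, a signal of dermis and hair follicle as well as of early mesoderm, had a 5364 bp control peak at its 3′ end and a 4189 bp control peak over its start on chromosome 14. In Eed cKO the 3′ peak was matched by a wider one of 8373 bp that contained it entirely. The peak over the Bmp4 start met no Eed cKO peak. The gene therefore counts as marked in both lists by its 3′ end only. A control peak of 8079 bp lay at the lower end of Bmp3, which encodes a BMP that dampens the signal of others. Inside the Bmp3 span, away from its ends, a 2.36 kb control peak overlapped a 2.43 kb Eed cKO peak that began 8.12 kb above the lower end.

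Bmp6 and Bmp8b, close relatives of Bmp7, had control peaks of 4434 and 5165 bp over their starts with the nearest Eed cKO peaks 872 and 1080 kb away. Bmp1, a protease that trims procollagen and is not itself a BMP ligand, had a 1552 bp control peak shared with Sftpc, the narrowest at any member. The other 6 BMP genes had no peak in either list. Bmp2 and Bmp7, which with Bmp4 act in skin appendages, were among them. The nearest control peak lay 38.4 kb from Bmp7 and 670 kb from Bmp2.

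Of the GDF genes, Gdf6, Gdf7, Gdf10 and Gdf1 were in both lists. Gdf7, a signal of the spinal cord roof plate, lay wholly under a 14107 bp control and a 12861 bp Eed cKO peak, which also reached the end of Ldah. Gdf6, a signal of joint and eye formation, had the largest summed control width of any member, 20.9 kb in peaks of 13534 and 7383 bp. The Eed cKO peak there, 8330 bp, lay inside the wider control peak, covered 61.5% of it and met none of the narrower. Gdf10, a relative of Bmp3, had peaks of 6421 and 3573 bp, and its control peak reached 2.89 kb ahead of the start whereas the Eed cKO peak began 0.08 kb inside it. Gdf5, the joint signal most like Gdf6 and Gdf7, had no peak in either list.

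Gdf1, a signal of left-right patterning, was marked by different peaks in the lists. Its 4476 bp control peak lay at the 3′ end, at Upf1 and Cers1 as well, and the 2963 bp Eed cKO peak lay at the start, at Cope and Cers1. Neither peak overlapped a peak of the other list, so 13 rather than 14 members had a control peak that met an Eed cKO peak. Gdf11, a signal that sets position along the body axis, had a 9722 bp control peak over its start, shared with Cd63, with the nearest Eed cKO peak 1351 kb away. Gdf2, Gdf3, Gdf9 and Gdf15 had no peak.

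The activin subunit genes differed in state. Inhbb had a 9658 bp control peak over its start and a 7617 bp Eed cKO peak wholly inside it, with 78.9% covered. Inhba, whose product forms activin A, had no peak, and the nearest peak of either list lay 3896 kb away.

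**Figure D2:**
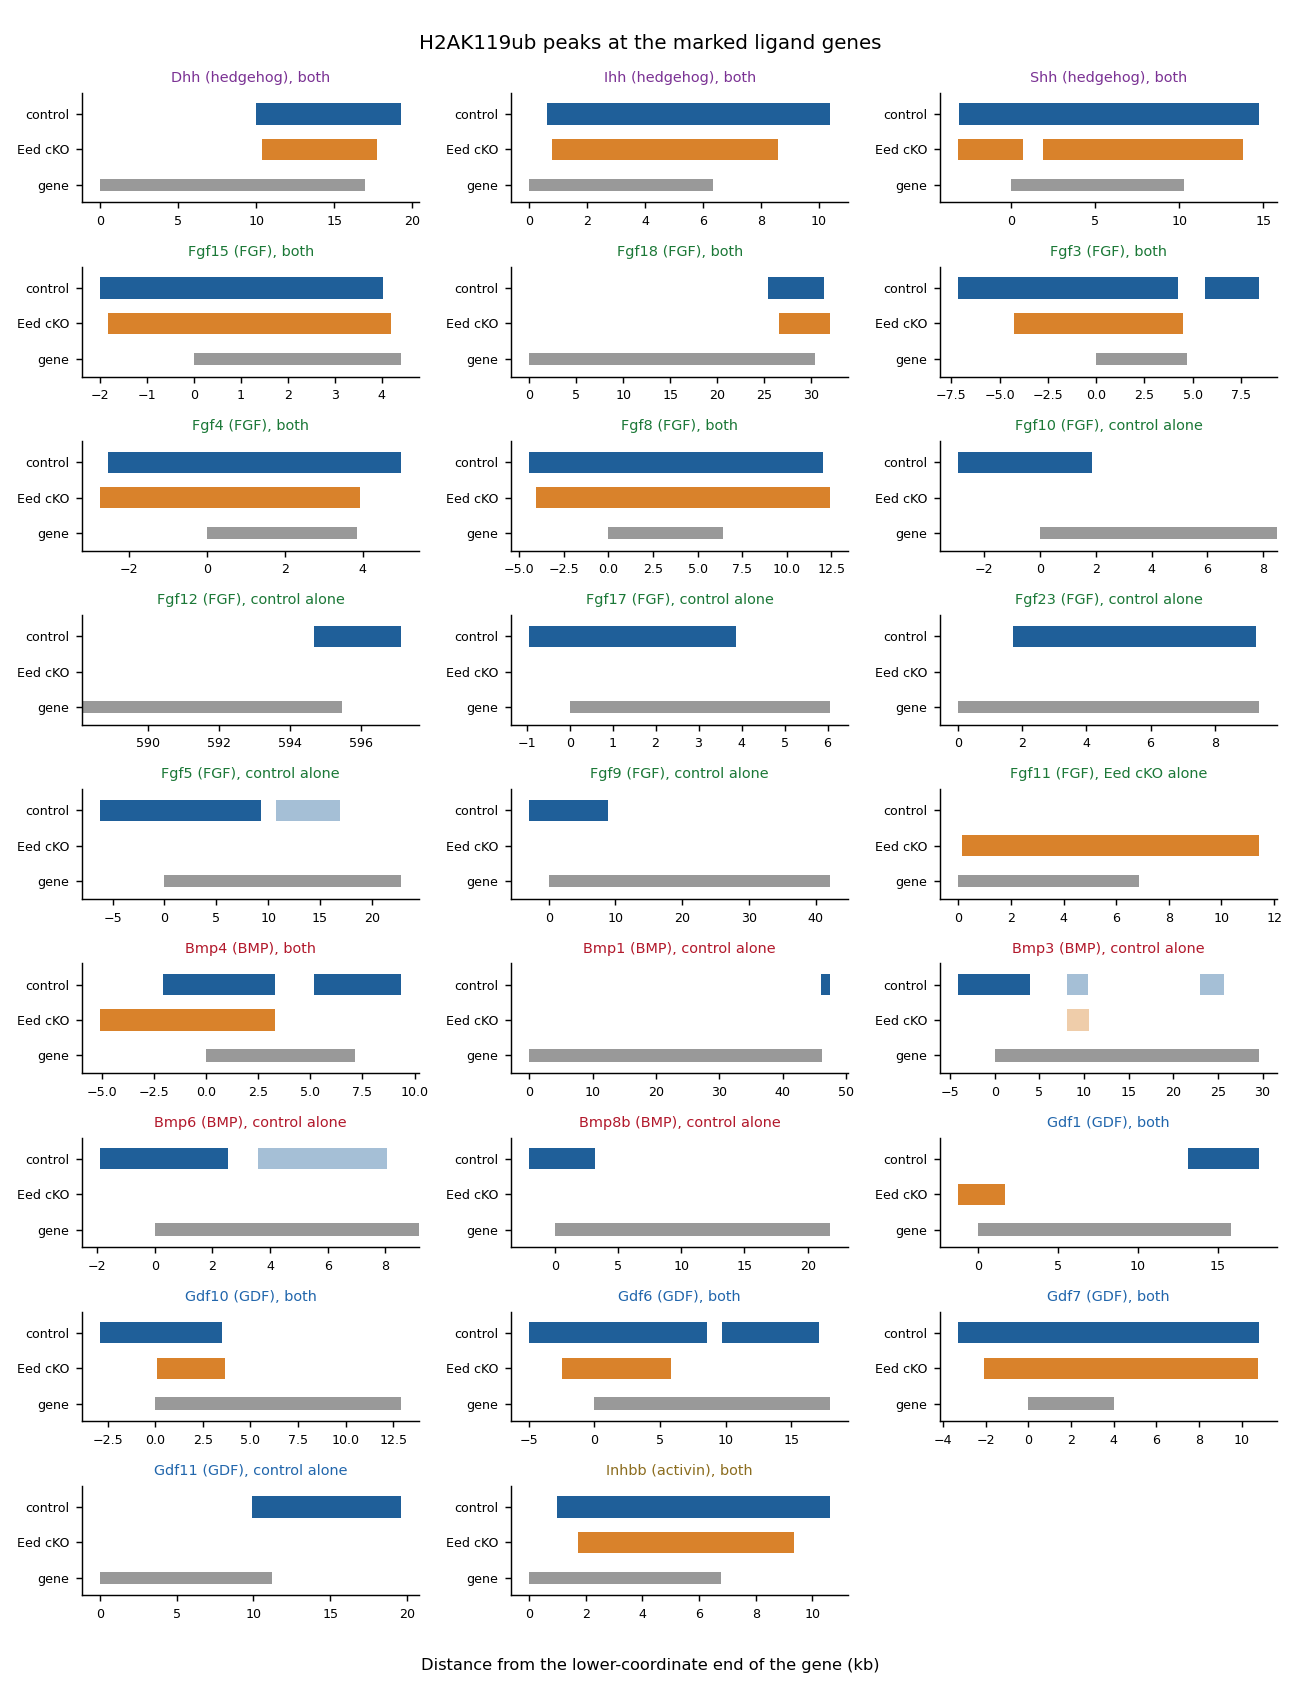
Maps of the 26 marked members, 1 panel per gene, with distance from the lower-coordinate end of the gene in kb (x axis), control peaks in blue, Eed cKO peaks in orange and the gene span in grey. Pale bars are peaks away from the gene ends, spans over 60 kb are shown at the marked end only, and scales differ between panels. Peak edges nearly coincide at Fgf8 and Fgf15, the peak at Shh is split in Eed cKO, and the Gdf1 peaks lie at opposite ends.

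Among members with a single control peak that met a single Eed cKO peak and no other, the widths could be paired gene by gene. In 7 of these 9 genes the Eed cKO peak was the narrower (77.8%). Of 1470 pairs of peaks anywhere in the lists that met each other and no other peak, 47.0% were narrower in Eed cKO. Those pairs had no rule on gene ends or on peaks per gene, so the sets are not alike. Bmp4, Fgf3 and Gdf6, with 2 control peaks each, were left out of the 9. At Bmp4 the Eed cKO peak was the wider (8373 against 5364 bp). It was the narrower at Fgf3 (8782 against 11418 bp) and Gdf6 (8330 against 13534 bp). The ratio of Eed cKO to control width ran from 0.556 at Gdf10 to 1.00 at Fgf8 and Fgf15, with a median of 0.885, against 1.02 over all pairs. At Fgf4 the ratio was 0.885, at Gdf7 0.912, at Fgf18 0.920, at Ihh 0.796, and at Dhh and Inhbb 0.789. Over all 14 genes in both lists, the summed width was smaller in Eed cKO at 12, the exceptions being Fgf8 and Fgf15. Gdf1 is among the 12 although its control and Eed cKO peaks did not overlap. The same count was not made for all genes in both lists. The smallest ratio of summed widths was 0.398, at Gdf6. These widths have no replicate error, so none of the differences was tested.

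The widest control peak at each gene had a median of 9.49 kb for the genes in both lists and 5.17 kb for those in control alone. The ranges overlapped widely, from 4.48 to 17.9 kb and from 1.55 to 15.5 kb. Over all genes the same medians were 7.36 and 4.83 kb. The widest peak at control-marked members had a median of 7.57 kb, against 5.90 kb over all control-marked genes. In Eed cKO the medians were 7.81 kb for members and 6.70 kb for all marked genes. Width ranked Shh 247th, Fgf8 285th and Fgf5 310th of the 4621 control peaks, and Fgf8 111th of the 2541 Eed cKO peaks.

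**Figure D3:**
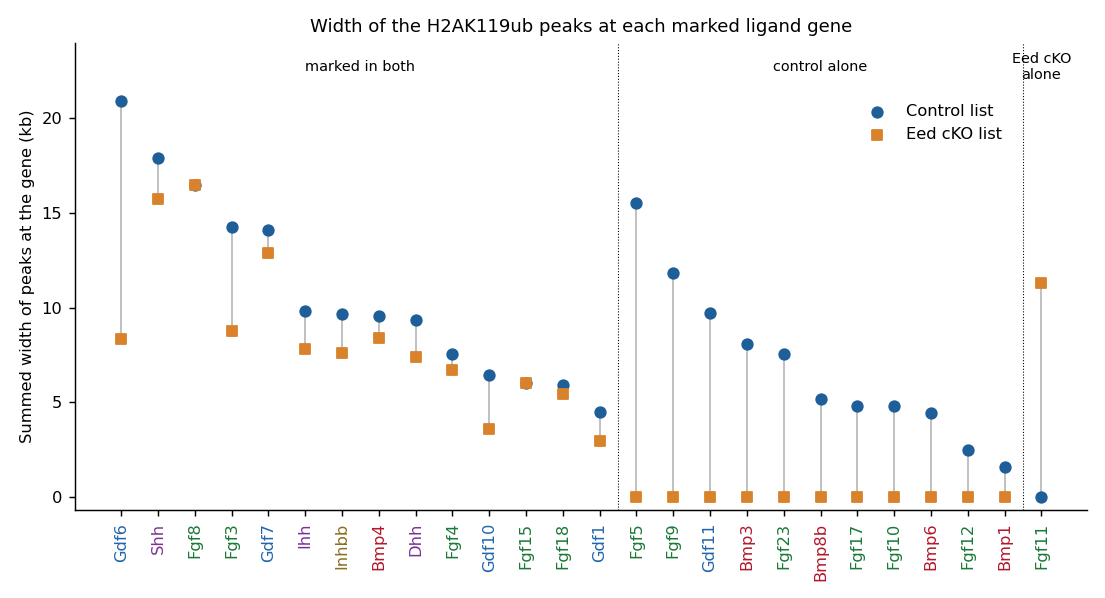
Summed width in kb of the H2AK119ub peaks at each marked member (y axis) in the control list (blue circles) and the Eed cKO list (orange squares), grouped by state and ordered by control width, with gene names coloured by family (hedgehog purple, FGF green, BMP red, GDF blue, activin brown). The values meet at Fgf8 and Fgf15, Gdf6 has the widest gap among genes in both lists, and Fgf5 the widest control peak among genes in control alone.

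Cover, the percent of a gene's control peaks that lay under Eed cKO peaks, was either substantial or 0. At 12 of the 25 control-marked members it was 0 (48.0%), against 49.1% of all control-marked genes. Those were the 11 genes in control alone and Gdf1. The remaining 13 genes ran from 39.8% at Gdf6 through 53.8% at Gdf10, 56.1% at Bmp4 and 59.8% at Fgf3 to 97.7% at Fgf8. The median over all 25 was 39.8%, the value of Gdf6 and the lowest above 0, against 17.9% for all control-marked genes. With cover of 0 at 48.0% and 49.1% of these sets, both medians sat at the edge of the 0 values. Their gap is thus no measure of higher cover at members. For the 14 genes in both lists the median was 79.2%, against 85.8% for all such genes.

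Read from the Eed cKO side, 14 of the 16 peaks at members met a control peak, and 6 lay wholly inside one. The exceptions were the peaks at Fgf11 and at Gdf1. Over the whole Eed cKO list these shares were 70.1% and 21.7%. From the control side, 13 of 28 peaks met an Eed cKO peak and 15 did not, while 37.9% of all control peaks met one. The whole-list shares of 70.1%, 21.7% and 37.9% include peaks away from gene ends, whereas all member peaks lay near one. The sets are thus not alike, and these shares do not set ligand genes apart from other genes. Of the 11 genes in control alone, 9 had no Eed cKO peak within 50 kb of their control peak, against 72.0% of all 1301 such genes. The median distance was 270 kb, against 198 kb for all such genes, and Bmp3 (4.13 kb) and Fgf5 (22.6 kb) were nearest. Within 20 kb of the members, 13 further control peaks and 3 further Eed cKO peaks lay away from member ends, 4 and 1 of them inside a member's span. The control list held more peaks in all (4621 against 2541). No such count was made around all genes, so these counts are not a trait of the ligand genes.

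Most peaks at members lay over the start of the gene. RefSeq promoters, and with them the strand, were found for 33 of the 48 members, of which 18 were marked in control. At 17 of these 18 a control peak lay within 2 kb of the start, and at 16 it lay over the start base itself. Over all 1890 control-marked genes with a promoter these shares were 84.1% and 58.6%. The others were Fgf23, whose peak began inside the gene, and Gdf1, whose peak lay at the 3′ end. In Eed cKO 11 of the 33 were marked, 10 of them near the start and 9 over it, against 78.9% and 53.5% of all such genes. Bmp4 was the gene marked at its 3′ end alone there.

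CG pairs ahead of the start were counted as a feature that the choice of members did not use. CG, which reads the same on both strands, was searched for in the 250 bases before the start. The median was 19 pairs in the 18 members marked in control and 5.5 in the 14 members without a peak. It was 20.5 in the 10 members in both lists and 17.5 in the 8 in control alone, so the ranges of these 2 states, 4 to 37 and 6 to 33, largely overlapped. Over all genes with a promoter the medians were 15 in both lists, 15 in control alone and 9 without a peak. At least 10 pairs were held by 14 of the 18 control-marked members, and by 3 of the 14 without a peak. Over all genes the shares were 70.1% of control-marked genes and 47.7% of genes without a peak, and 50.4% of all 17491 promoters.

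Some members lay far from the median of their state. Fgf3 was marked in both lists with 4 CG pairs and Dhh with 9. In control alone, Fgf23 was marked with 6 and Fgf10 with 8, and Fgf11 was marked in Eed cKO alone with 5. Fgf2, a broadly acting FGF, had 20 pairs and no peak, as did Fgf22 with 15 and Bmp8a with 12. The highest counts were 37 at Fgf18, 35 at Gdf10 and 33 at Gdf11.

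**Figure D4:**
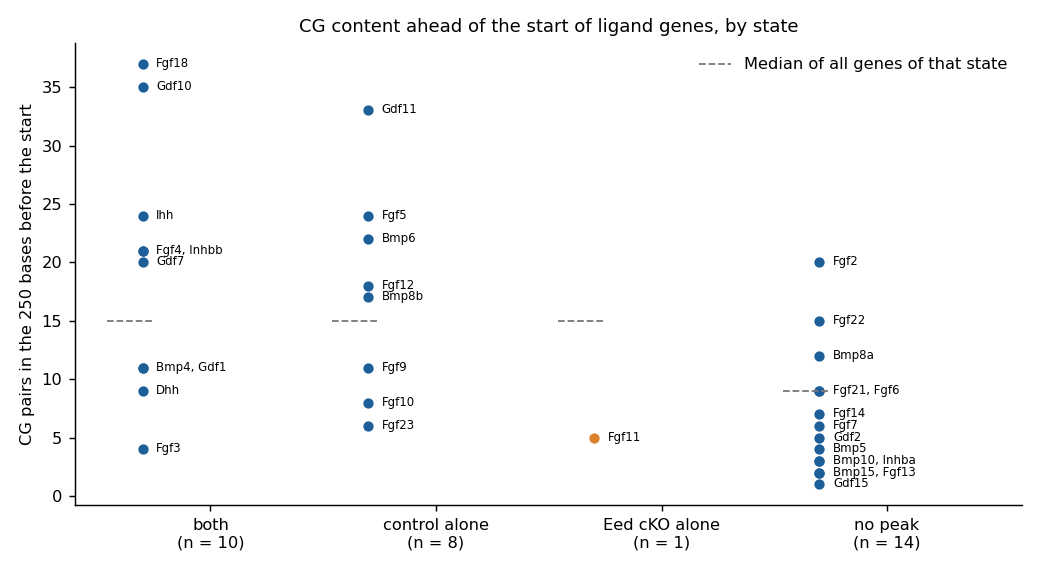
Number of CG pairs in the 250 bases before the start (y axis) of the 33 members with a RefSeq promoter, 1 labelled point per gene, by state, with a dashed line at the median of all genes of that state. Most marked members lie above 10 pairs and most members without a peak below it. Departures include Fgf3, Fgf10, Fgf11, Fgf23 and Dhh among marked members, and Fgf2, Fgf22 and Bmp8a among those without a peak.

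The 22 members without a peak were far from the 2 kb limit. The nearest control peak lay 13.9 kb away at Gdf2, where it is the peak over the start of neighbouring Gdf10, 17.1 kb away at Gdf9 and 20039 bp away at Gdf15. The median distance was 160 kb and the largest 4268 kb, at Bmp15, and 6 of the 22 had a control peak within 50 kb. For Eed cKO peaks the median was 321 kb. These distances were not worked out for all genes without a peak, so they are not a trait of the ligand genes. The members on the X chromosome, Bmp15, the oocyte factor, Fgf13 and Fgf16, were all without a peak (0 of 3, upper bound 56.1%). The share for all genes on the X chromosome was not worked out.

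Genes that receive, block or answer these signals were also counted. Of 98 such genes in 7 lists, 20 had a control peak (20.4%) and 17 an Eed cKO peak (17.3%), against 11.7% and 7.40% of all genes. Both lists held 12 of the 98, control alone 8 and Eed cKO alone 5. Over all genes these states made up 5.71%, 5.95% and 1.70%. The lists were chosen with results of these data known, and the difference from the ligands was not tested. Of the 9 genes for FGF receptors and cofactors, Fgfr1 had a 2.07 kb peak in control alone and Fgfr3 a 38.6 kb peak in Eed cKO alone, 5.64% of which overlapped control peaks. Of the 15 BMP, activin and TGF-beta receptor genes only Acvrl1, an endothelial receptor, was marked, with 5.48 and 6.16 kb. Among 8 other ligand genes of the TGF-beta superfamily Amh alone was marked, with 6.82 and 6.52 kb.

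Of 13 FGF feedback inhibitors and target genes, 4 were marked in each list and 3 in both. Spry4, an inhibitor of FGF signalling, had peaks of 13.6 and 9.10 kb. Spred3 had peaks of 3.30 and 2.22 kb. Il17rd (6.06 kb) was in control alone and Spry2 (3.99 kb) in Eed cKO alone. Of 21 BMP and activin antagonists 5 had a control peak and 2 an Eed cKO peak. Sost (5.31 and 4.26 kb) and Vwc2 (4.19 and 2.81 kb) were in both lists. Bmper (8.39 kb) and Nog (4.35 kb), the noggin gene, were in control alone.

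Of 14 SMADs and BMP target genes, 3 had a control peak and 4 an Eed cKO peak. Msx1, a homeobox target of BMP signals, had peaks of 23.7 and 25.4 kb, and the inhibitory Smad6 had 7.25 and 6.74 kb. Smad7 (9.84 kb) and Id3 (9.33 kb) were in Eed cKO alone and met no control peak. Of 18 hedgehog pathway genes 5 had a control peak and 4 an Eed cKO peak. Hhip (9.10 kb), a decoy receptor for hedgehog proteins, and Scube2 (6.21 kb), which helps release them, were in control alone. Scube3 had 8.14 and 4.41 kb, and Gli2 (6.66 kb), a transcription factor of the pathway, was in Eed cKO alone. Like the 3 hedgehog ligand genes, Scube3, Gas1 (2.32 and 2.35 kb) and Disp2 (2.38 and 3.15 kb) were in both lists. Ptch1, Smo and Gli1, named after their values were seen, had no peak in either.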

How the data were processed

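H2AK119ub was profiled by chromatin immunoprecipitation and sequencing in sorted epidermal progenitors, with 2 libraries each for control and Eed cKO. The authors deposited 1 peak list per genotype, with chromosome, start and end in mm10 and no height or score, per the file headers. The submitters' processing notes name Bowtie2 2.3.3.1 with SAMtools 1.9. How and at what threshold peaks were called, whether inputs were used and how libraries were combined is not given in the sources used here.

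Peaks were set against RefSeq gene spans of GRCm38, mitochondrial genes left out, and a gene was marked when a peak overlapped, by at least 1 bp, 2000 bp on either side of either end. Width is the peak length, and cover is the percent of control peak bases under Eed cKO peaks. Strand came from RefSeq promoters, with the site nearest the outer end of the span where several were listed. Positions count from 1. Members, gene lists and the rule for named genes were chosen with earlier results of these data known. Every marked member is named, and of each pathway list up to 4 genes with the widest peaks and all genes in Eed cKO alone. Ptch1, Smo, Gli1, Gas1, Disp2, the named keratin genes and Trp63 were named after their values were seen. The overlap code recovered 200 of 200 planted genes on simulated data. Planted peaks were centred on gene ends, so they tested neither the window edge nor false calls. A direct recount of the real peaks at every member gave 0 mismatches. Shares carry 95% Wilson intervals. Alternatives varied the window, the overlap and the peaks kept. Python 3.11.15, numpy 2.4.6 and pandas 2.3.3 were used.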

Additional observations from a re-analysis of the deposited data

How the results depend on the processing

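No paired analysis was possible because each genotype had 1 peak list with no replicate columns, and for the same reason no replicate could be left out. The state of every member was unchanged with windows of 1000 or 5000 bp, with peaks within 1000 bp joined and with an overlap of at least 500 bp. With the gene span plus 2000 bp on both sides, Bmp3 moved from control alone to both lists, and the median Eed cKO width became 7713.5 bp in place of 7810 bp. Without the narrowest 25% of each list, Bmp1 and Fgf12 had no peak and Gdf1 was in control alone. The median widths were then 8079 bp in control (7568 bp with all peaks) and 8070 bp in Eed cKO, and the median cover was 53.8% in place of 39.8%. With the control list trimmed to its widest 2541 peaks, Bmp1 and Fgf12 again had no peak, with a median control width of 8079 bp and a median cover of 53.8%. With the 5′ end alone, run on the 33 members with a strand, 8 were in both lists and 2 in Eed cKO alone, against 10 and 1 with both ends in the same 33, as Bmp4 and Gdf1 changed state. The median Eed cKO width was then 7491 bp and the median cover 0%, against 7617 bp and 26.9% with both ends. Requiring the control peak at the gene to meet an Eed cKO peak anywhere gave 13 members in place of 14.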
